A study of Rattus norvegicus with 71 samples.

Results

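The granins and the enzymes that process prohormones were followed here as 10 genes: the granins Chga, Chgb, Scg2, Scg3 and Vgf, the prohormone convertases Pcsk1 and Pcsk2, their protein partners Scg5 and Pcsk1n, and the carboxypeptidase Cpe. They were looked up by symbol in a count table of 17494 genes, where all 10 were found, and were described over all 71 animals. The list was selected on biological role by someone who knew results of these data, and which measured values entered that choice is not recorded. Every difference, p-value and false discovery rate (FDR) given below for a member is therefore a description of the fit and not independent evidence.

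Neuropeptides and neurotrophins are made as large precursors that are sorted in the Golgi into dense-core vesicles and cut there. Granins are acidic, calcium-binding proteins that fill these vesicles and help to form them, and several of them are themselves cut into peptides. Pcsk1 and Pcsk2 cut precursors at pairs of basic residues, Cpe trims the exposed basic residues, Scg5 (7B2) is the chaperone that Pcsk2 needs to mature, and Pcsk1n (proSAAS) inhibits Pcsk1. In brain most of these genes are expressed mainly by neurons and are richest in peptide-secreting regions such as the hypothalamus. Scg3 and Cpe also have roles in sorting cargo to the vesicle membrane.

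The study exposed Sprague-Dawley rats in the womb to autoantibodies raised in their mothers, a model of maternal autoantibody-related autism. Dams (wild type) were immunized with peptides of the antigens of 1 of 4 autoantibody patterns in Freund's adjuvant, and control dams received adjuvant with saline, so that controls share the adjuvant. Each brain was taken at postnatal day 2, and poly-A RNA was sequenced from a single coronal slice that held hippocampus with cortical and subcortical tissue, while the series description names frontal cortex and hypothalamus. There were 24 controls from 7 litters, 25 animals of 9 litters with the pattern LDHA/B+CRMP1+STIP1, 8 of 4 litters with CRMP1+CRMP2, 6 of 3 litters with CRMP1+GDA, and 8 of 4 litters with STIP1+NSE. The series contained 35 males and 36 females from 27 litters, 1 litter a dam, so animals of the same litter are not independent exposures.

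Sample titles fall into 2 series, and the study's methods describe 2 experimental batches of the same composition. The first title series (titles starting with IgG, RNA or FcRn) comprised 28 animals, 12 of them controls and 16 exposed to LDHA/B+CRMP1+STIP1. The second (MAR_C3) comprised 43, of which 12 were controls, 8 CRMP1+CRMP2, 9 LDHA/B+CRMP1+STIP1, 6 CRMP1+GDA and 8 STIP1+NSE. Exposed animals of the 3 patterns other than LDHA/B+CRMP1+STIP1 were all in the second, so their comparison with all 24 controls also compares title series, while the comparison within the second series does not.

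Libraries held 24880182 to 36234952 counts in genes. Regional markers differed widely between slices, which has to be kept in mind for every result below. Their part in the levels of the members was not tested. The 8 thalamus and habenula markers in the table summed to between 95.1 and 167 CPM (counts scaled to the library total) in the first title series. In the second they summed to between 132 and 1089 CPM, and 5 animals lay under 300 CPM. Those were the female of litter 9_1 and a male of litter 9_6 (both CRMP1+CRMP2), the male and the female of litter 9_4 (LDHA/B+CRMP1+STIP1), and the female of litter 9_2 (STIP1+NSE). The 9_1 female also had pineal markers at 262 CPM, where the controls of its series had 6.33 to 15.6. Hypothalamic markers (17 of 18 listed were in the table) ranged from 3.57 to 42.2 CPM in the first series and from 11 to 172 CPM in the second, and Pmch, which defines lateral hypothalamic neurons, was at 0 in all 71 libraries, while Hcrt of the same region was over 1 CPM in 13. Of the hormones that define the anterior pituitary, Prl was at 0 in 68 and Fshb in 69 of 71 libraries, while Lhb was over 1 CPM in 57, with at most 3.13 CPM. In bulk tissue, fewer cells of a type and less RNA per cell cannot be told apart.

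Across the 71 animals the carboxypeptidase Cpe and the convertase inhibitor Pcsk1n had the most transcript per length, and the convertase Pcsk1 the least. Levels were compared as RPKM, which is CPM divided by the exon length in kilobases. Cpe, on chromosome 16 (25030276 to 25142231, rn7, plus strand, 9 exon blocks), had a median of 492 RPKM and ranked 109 of 12477 genes. Pcsk1n, on the X chromosome (14580036 to 14583478, minus strand), had a median of 426 RPKM. The granin Scg3 followed with 114 RPKM and the chaperone Scg5 with 77.4 RPKM. Scg3 lies on chromosome 8 (76399777 to 76442015, minus) and Scg5 on chromosome 3 (100544105 to 100588437, minus). Chga and Chgb, the chromogranins, had medians of 66.6 and 64.7 RPKM, Scg2 (secretogranin II) of 54.3 and Vgf of 51.7. Pcsk2, the convertase of late compartments, had a median of 28.2 RPKM and Pcsk1 of 1.65, a rank of 10728. Chga lies on chromosome 6 (121696051 to 121707399, plus), Chgb on 3 (120043824 to 120057168, plus), Scg2 on 9 (80803151 to 80808464, minus) and Vgf on 12 (19637320 to 19640341, minus). Pcsk2 lies on chromosome 3 (130880422 to 131183127, plus) and Pcsk1 on 2 (4395543 to 4442432, plus). In that order of levels, neighbouring genes from Cpe to Pcsk1n, from Scg3 to Scg5 and from Scg5 down to Pcsk2 overlapped in their ranges over animals. Pcsk1n at its lowest (247 RPKM) stood above Scg3 at its highest (141), and Pcsk2 at its lowest (20.2) above Pcsk1 at its highest (3.57). Pcsk1n thus lay above its target Pcsk1, and Scg5 above its client Pcsk2, in every animal.

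**Figure D1:**
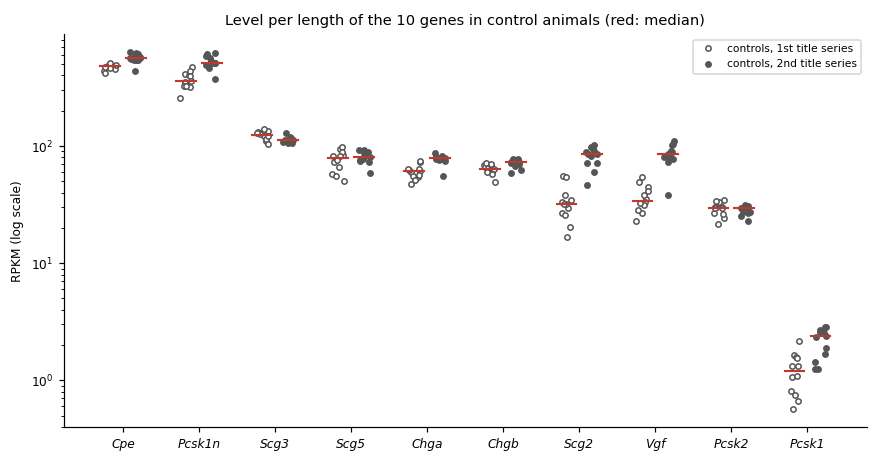
RPKM (log axis) of the 10 genes in the 12 control animals of the first title series (open circles) and the 12 of the second (filled), 1 point per animal, with the median as a red line, ordered by median. Cpe lies near 500 RPKM and Pcsk1 near 2, and the medians of Scg2 and Vgf are the farthest apart between the series.

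The genes also differed in how much they varied between animals. Scg3 was the steadiest, from 212 to 303 CPM over all 71 animals, a 1.43-fold range. Chgb, Cpe, Pcsk2 and Chga spanned 1.79-, 1.77-, 1.73- and 1.98-fold. Pcsk1n and Scg5 spanned 2.88- and 2.9-fold, Vgf 4.82-fold, Scg2 7-fold and Pcsk1 7.55-fold. Only 2.36% of genes varied less than Scg3 within group and title series, while 88.4% varied less than Scg2. Counting error is small beside this: at the median count it was 6.43% of the value for Pcsk1 and 0.58% to 2.28% for the other 9, values that would be larger if each read pair was counted as 2 reads, which the sources used here do not settle. Of the variation within group and title series, 35.7% (Chgb) to 60.1% (Pcsk1n) lay between litters, where 31.2% would be expected from the number of litters alone.

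Promoters are shown for the granins because the 2 granins whose levels ranged most, Scg2 and Vgf, carry the same sequence near their start. RefSeq promoters (GRCr8, 250 bases before the transcript start to 50 after) were matched for 8 of 10 members by symbol, and Chga and Pcsk1 had no entry. Both strands were searched for the cyclic AMP response element TGACGTCA, which is its own reverse complement, and for the shorter core TGACG that it contains. The full element was in 1.83% and the core in 21.2% of 33469 promoters. In capitals below are the full element in Scg2 and Vgf and the core in Scg3, and Chgb had neither.
Scg2 promoter, chr9:88256817-88257116, minus strand: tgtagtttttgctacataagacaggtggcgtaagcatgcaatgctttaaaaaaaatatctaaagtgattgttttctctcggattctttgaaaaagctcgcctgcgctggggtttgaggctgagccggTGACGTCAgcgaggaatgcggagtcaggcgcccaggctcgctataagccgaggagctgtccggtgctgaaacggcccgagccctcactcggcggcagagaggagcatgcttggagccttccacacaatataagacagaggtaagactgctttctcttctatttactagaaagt
Vgf promoter, chr12:25276971-25277270, minus strand: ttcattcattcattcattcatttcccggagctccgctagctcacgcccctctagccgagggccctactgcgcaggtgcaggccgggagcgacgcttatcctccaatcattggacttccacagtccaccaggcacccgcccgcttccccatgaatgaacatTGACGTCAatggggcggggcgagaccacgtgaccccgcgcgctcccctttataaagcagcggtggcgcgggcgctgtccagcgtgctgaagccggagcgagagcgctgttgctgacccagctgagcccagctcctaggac
Scg3 promoter, chr8:85322435-85322734, minus strand: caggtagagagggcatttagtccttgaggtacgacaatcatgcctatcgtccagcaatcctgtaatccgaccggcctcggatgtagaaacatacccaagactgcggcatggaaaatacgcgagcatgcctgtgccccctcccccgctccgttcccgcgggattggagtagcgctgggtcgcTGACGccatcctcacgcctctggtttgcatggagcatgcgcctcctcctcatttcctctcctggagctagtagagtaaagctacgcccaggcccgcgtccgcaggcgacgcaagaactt
Chgb promoter, chr3:140496462-140496761, plus strand: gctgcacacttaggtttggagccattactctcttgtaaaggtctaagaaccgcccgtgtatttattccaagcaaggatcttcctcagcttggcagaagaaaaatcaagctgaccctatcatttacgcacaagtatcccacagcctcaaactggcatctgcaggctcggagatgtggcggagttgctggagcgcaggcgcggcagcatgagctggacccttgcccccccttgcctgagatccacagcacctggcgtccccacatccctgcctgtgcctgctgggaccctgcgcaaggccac
The element began 123 bases before the start in Scg2 and 90 bases before it in Vgf. The core began 69 bases before the start in Scg3, 57 in Pcsk2 and 173 in Cpe, and occurred at 2 places in Scg5, while Pcsk1n had none. A match describes letters in this window and was not tested for binding or for any part in the levels.

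Between the controls of the 2 title series, 8 of the 10 genes differed at FDR under 0.1 (edgeR quasi-likelihood test, Benjamini-Hochberg adjusted over all 12565 genes tested), 7 higher and 1 lower in the second. This comparison holds no exposure, and 41.5% of all genes passed it, so 8 of 10 has to be read against a background of that size. The median log2 difference of the 10 was 0.28, against 0.00 for all genes. Among the granins, Scg2 ran from 38.5 to 127 CPM (median 73.5) in the first series and from 106 to 232 (median 197) in the second. Only 1 control of the second series lay inside the range of the first. The log2 difference was 1.27 (SE 0.15, FDR = 8.9e-07). Vgf, a neurotrophin-responsive granin, ran from 59.8 to 143 CPM (median 90.3) and from 101 to 288 (median 227), again with 11 of 12 animals of the second series above the first. Its log2 difference was 1.19 (SE 0.14, FDR = 5.4e-07). Chga was higher by 0.33 (SE 0.062, FDR = 0.00020) and Chgb by 0.14 (SE 0.050, FDR = 0.036), while Scg3 fell by 0.16 (SE 0.049, FDR = 0.011).

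Of the processing genes, Pcsk1 ran from 2.86 to 10.96 CPM (median 6.05) in the first series and from 6.24 to 14.3 (median 11.9) in the second, with 7 of 12 animals above the highest control of the first series. The log2 difference was 0.80 (SE 0.20, FDR = 0.0028). Its inhibitor Pcsk1n had medians of 336 and 486 CPM and a log2 difference of 0.48 (SE 0.067, FDR = 4.7e-06). Cpe had medians of 998 and 1184 CPM and a log2 difference of 0.23 (SE 0.039, FDR = 4.8e-05). Pcsk2 and its chaperone Scg5 did not pass, with log2 differences of -0.07 (SE 0.069, FDR = 0.48) and 0.07 (SE 0.087, FDR = 0.59). For these last 2 genes no control of the second series lay above the first.

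Regional markers differed between the same controls. All 8 choroid plexus markers were higher in the second series, as were 9 of 12 tested hypothalamic and 6 of 8 thalamic and habenular markers (1 was lower). Of 11 cortical and hippocampal neuron markers, 4 were higher and 6 lower, and 8 of 12 striatal and GABA neuron markers were lower. With the summed cortical and hippocampal markers as a covariate, an alternative chosen after seeing the data, 3 of 10 members passed, beside 1681 of 12565 genes. These 3 members were Vgf (log2 difference 0.68, FDR = 0.032), Scg2 (0.33, FDR = 0.091) and Scg5, which was now lower (-0.46, FDR = 0.0014). With counts summed per litter, 5 members passed, beside 1895 of 12171 genes.

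In animals exposed to CRMP1+CRMP2, 7 of the 10 genes had lower fitted levels than all 24 controls at FDR under 0.1. All 10 estimates were negative. Of all 12691 genes, 11.4% passed in either direction. The members' median log2 difference was -0.29, against 0.01 for all genes. At an unadjusted p under 0.05, 8 members were lower, beside 13.1% of all genes. The fit used the first surrogate variable as covariate, after the study's model, and the direction refers to levels after that adjustment. Before it, mean Scg2 was 134 CPM in the exposed, 76.25 in controls of the first title series and 186 in those of the second. Mean Vgf was 172, 96.45 and 223 CPM in the same order, so the exposed lay between the 2 sets of controls.

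Among the granins, Scg2 had the lowest estimate. The 8 exposed animals ran from 50.4 to 205 CPM (median 153), the 12 controls of the same title series from 106 to 232 (median 197), and the 12 of the first from 38.5 to 127. Of the 8, 2 lay below and none above the controls of their own series. Against all controls the log2 difference was -0.41 (SE 0.076, FDR = 0.0036). Vgf ran from 69.1 to 247 CPM (median 194) in the exposed and from 101 to 288 (median 227) in the controls of the same series, with a log2 difference of -0.33 (SE 0.11, FDR = 0.079). Chga ran from 89.7 to 155 CPM (median 123) against 104 to 164 (median 148), and its log2 difference was -0.25 (SE 0.055, FDR = 0.010). Chgb ran from 130 to 191 CPM against 150 to 197, with a log2 difference of -0.21 (SE 0.052, FDR = 0.022). In each of these 4 granins 2 exposed animals were under every control of their series, and the other 6 were within the control range. Scg3 gave -0.04 (SE 0.048, FDR = 0.65).

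The partner proteins and the carboxypeptidase followed. Pcsk1n ran from 232 to 537 CPM (median 375) in the exposed, against 350 to 591 (median 486) in the controls of the same series, and 4 of 8 animals lay below every one of them. Its log2 difference from all controls was -0.35 (SE 0.079, FDR = 0.013). Scg5 ran from 42.9 to 101 CPM (median 76.3) against 65.6 to 103 (median 88.9), with 3 of 8 below, and its log2 difference was -0.35 (SE 0.11, FDR = 0.051). Cpe ran from 745 to 1251 CPM (median 1044) against 911 to 1318 (median 1184), with 2 of 8 below, and its log2 difference was -0.21 (SE 0.053, FDR = 0.021). The convertases did not pass: Pcsk1 gave -0.34 (SE 0.16, FDR = 0.18) and Pcsk2 -0.14 (SE 0.075, FDR = 0.23). Pcsk1 ran from 2.38 to 14.6 CPM in the exposed and from 6.24 to 14.3 in the controls of their series, so the groups overlapped widely.

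Within the second title series none of the 10 genes passed for CRMP1+CRMP2 with edgeR, where 0.785% of 12738 genes did. DESeq2 passed 2 members (Cpe and Pcsk1n) and limma with the litter as a random effect 0. The estimates were -0.50 for Scg2 (SE 0.20, FDR = 0.20), -0.41 for Pcsk1n (SE 0.14, FDR = 0.16), -0.41 for Vgf (SE 0.23, FDR = 0.32), -0.27 for Chga (SE 0.096, FDR = 0.17) and -0.24 for Cpe (SE 0.078, FDR = 0.14). All 10 were negative, with a median of -0.28, against 0.01 for all genes. At an unadjusted p under 0.05, 6 were lower, beside 9.63% of all genes.

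The lowest Scg2, Vgf and Pcsk1 values of the exposed were in the 9_1 female and the lowest Pcsk1n, Scg5 and Cpe values in a 9_6 male. These animals had few thalamic markers (132 and 247 CPM) and many cortical and hippocampal ones (2299 and 2341 CPM, above the highest control of their series at 1799). The female had Scg2 at 50.4, Vgf at 69.1 and Pcsk1 at 2.38 CPM, and its litter mate had Scg2 at 158 and Vgf at 236 CPM. The male had Scg2 at 70.6 and Pcsk1n at 232 CPM, and its litter mate had 159 and 349 CPM. Leaving out the animals of the second title series with thalamic markers under 300 CPM removed these 2 and no control, although a control of that series had 308 CPM and those of the first had 95.1 to 167. Without them 0 of 10 members passed against all controls (5 at an unadjusted p under 0.05), beside 5 of 12652 genes (1554 at that p). The members' median was -0.18, and the estimates for Scg2 and Pcsk1n were -0.36 and -0.31. Without litter 9_6, 0 passed as well, with 7 at an unadjusted p under 0.05, all 10 lower and a median of -0.24. Of 12653 genes in that fit, 41 passed and 1275 had such a p. With the summed cortical and hippocampal markers as covariate 0 passed (6 at an unadjusted p under 0.05), beside 0 of 12691 genes (1621 at that p). With the thalamic markers 7 members did, beside 1977 genes. These alternatives were chosen after seeing the data, except that of leaving out litters. With sex in place of the surrogate variable 0 members passed, beside 834 of 12691 genes. In limma with the litter as a random effect 2 members did, beside 33 genes. Within the second title series, leaving out the low animals of every group left 0 members at an unadjusted p under 0.05, beside 1202 of 12713 genes, and a median of -0.12. Among other marker lists, 7 of 8 choroid plexus and 5 of 6 tested pineal genes were higher against all controls while 4 of 12 general neuron markers, 3 of 12 striatal and GABA neuron and 2 of 7 oligodendrocyte genes were lower. Within the second series 4 pineal genes passed, and 0 of the other lists named here. Their part in the members' difference was not tested.

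**Figure D2:**
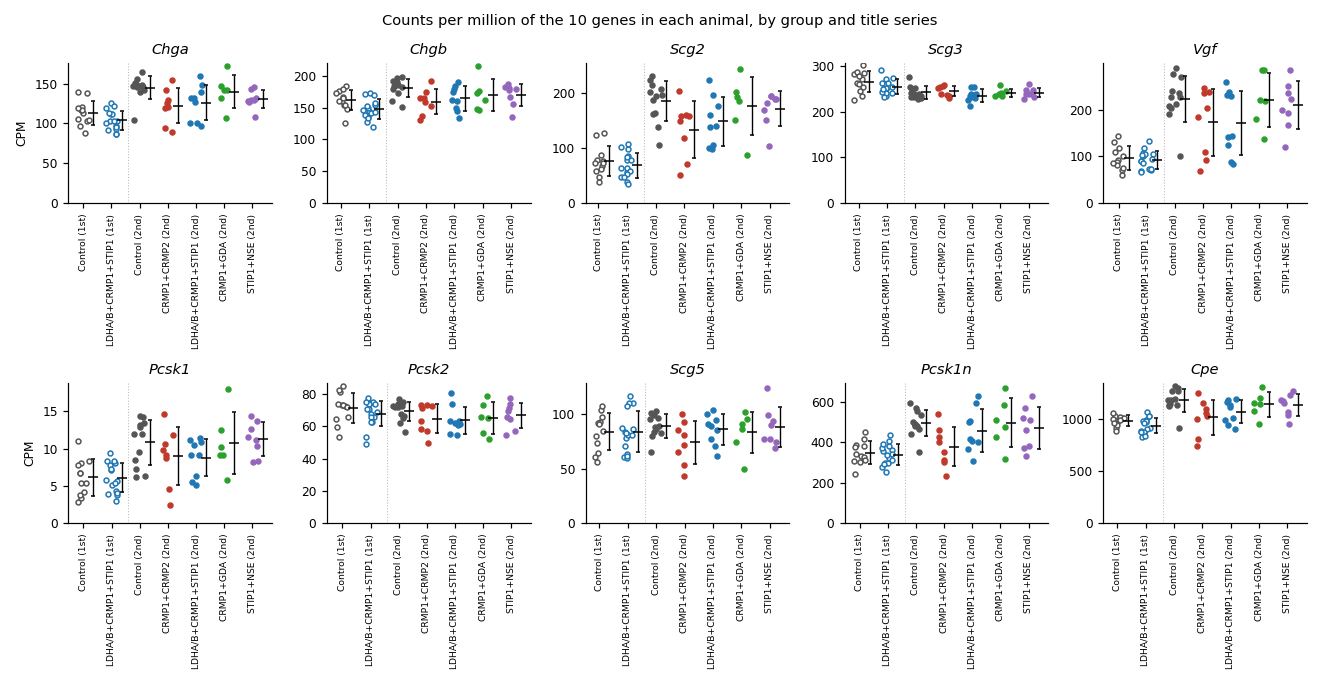
CPM of each gene in each animal by group, with open circles for the first title series and filled for the second, and the mean with its standard deviation as a black bar to the right of the points. Scg2, Vgf, Pcsk1 and Pcsk1n are higher in the controls of the second series than of the first, and the lowest CRMP1+CRMP2 animals of Scg2 (50.4 and 70.6 CPM) lie apart from the other 6.

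For the 4 patterns together, 47 exposed animals against 24 controls, all 10 estimates were negative and none passed with edgeR, where 0.0321% of 12477 genes did. DESeq2 passed 2 (Chga and Chgb, both FDR = 0.098) and limma with the litter as a random effect 0, beside 16 and 0 of 12477 genes. The median was -0.10, against 0.00 for all genes, and 5 members were lower at an unadjusted p under 0.05, beside 4.19% of all genes. Chga had a log2 difference of -0.15 (SE 0.038, FDR = 0.18), Chgb of -0.14 (SE 0.035, FDR = 0.18), Cpe of -0.10 (SE 0.032, FDR = 0.29), Scg2 of -0.18 (SE 0.066, FDR = 0.35) and Pcsk2 of -0.09 (SE 0.045, FDR = 0.46). In linear terms these were 0.883 (Scg2) to 0.937 (Pcsk2) of the control level. The other 5 lay between -0.14 (Vgf) and -0.04 (Scg3). With principal components PC1 to PC7 in place of the surrogate variable, 7 of 10 were lower and the median was -0.04, and with the cortical and hippocampal markers as covariate 8 of 10 were lower with a median of -0.05. All 10 stayed lower with PC1 and PC2 (median -0.09), title series and sex (-0.10), sums per litter (-0.12) or the litter as a random effect (-0.13). The same held in the second title series alone, with sex as covariate (-0.145).

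LDHA/B+CRMP1+STIP1, the only pattern present in both title series, gave no passing member with edgeR, DESeq2 or limma against all controls, where edgeR passed 0.0157% of genes. At an unadjusted p under 0.05, 5 members were lower, beside 3.22% of genes. In the first title series 0 members passed (3 at an unadjusted p under 0.05), beside 0.0161% and, for lower genes at that p, 2.21% of genes. Chga ran from 86.8 to 126 CPM (median 103) in 16 exposed animals and from 88.5 to 140 (median 115) in 12 controls, and the log2 difference was -0.12 (SE 0.054, FDR = 0.91). Chgb ran from 120 to 173 CPM (median 145) against 126 to 183 (median 163), with a log2 difference of -0.13 (SE 0.049, FDR = 0.86). In both, 13 of 16 exposed animals lay under the control median, and the ranges overlapped.

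In the second title series the same pattern again passed 0 members, beside 0% of all genes, and 2 (Chga and Chgb) were lower at an unadjusted p under 0.05, beside 2.16% of genes. Without litter 9_4, whose animals both had few thalamic markers, or without litter 9_24, 0 had such a p, and the median moved from -0.15 to -0.10 and -0.12. Without litter 9_9, 9_14 or 9_19 it moved the other way, to -0.18, -0.20 and -0.20. In these 3 fits 3, 5 and 2 members had such a p, beside 1371, 860 and 726 genes in either direction. With all litters, the estimates were -0.21 for Chga (SE 0.093), -0.15 for Chgb (SE 0.074), -0.32 for Scg2 (SE 0.19) and -0.38 for Vgf (SE 0.22). The ranges of all 10 genes again overlapped those of the controls. The difference between the 2 series' effects was itself tested. None of the 10 passed or had an unadjusted p under 0.05, beside 0.11% and 3.05% of genes, with the largest estimate for Vgf (-0.30, SE 0.23, FDR = 0.9999). DESeq2 and limma also passed 0.

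For CRMP1+GDA, 0 members passed against all controls (0% of genes), and 2, Scg2 and Scg5, were lower at an unadjusted p under 0.05, beside 2.03% of genes. Within the second title series 0 passed and 0 had an unadjusted p under 0.05, beside 0% and 4.77% of genes, and the estimates ran from -0.11 (Scg5) to 0.00 (Pcsk1n). For STIP1+NSE, 0 passed against all controls (0.0474% of genes) and only Chga was lower at an unadjusted p under 0.05, beside 1.64% of genes. Within the second title series 0 passed and 0 had such a p, beside 0% and 2.27% of genes, with Chga at -0.16 (SE 0.096) and Pcsk1 at 0.06 (SE 0.22). DESeq2 and limma passed 0 in each of these. With sex in place of the surrogate variable, the comparisons with all controls turned direction: 4 of 10 members were lower in each, the medians were 0.08 for CRMP1+GDA and 0.03 for STIP1+NSE, and 0 had an unadjusted p under 0.05. The standard errors of 0.20 to 0.25 for Scg2, Vgf and Pcsk1 are as large as most of the estimates, so a lack of calls does not show that these groups equal controls.

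Whether the patterns differed from each other was tested within the second title series on 3 degrees of freedom. None of the 10 genes passed with edgeR, DESeq2 or limma, and 0 had an unadjusted p under 0.05 with edgeR, beside 0% and 7.03% of genes. With DESeq2, 1 had such a p. Pcsk1n had the smallest p of the 10 (FDR = 0.66). The lower values under CRMP1+CRMP2 were therefore not shown to be particular to that pattern.

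**Figure D3:**
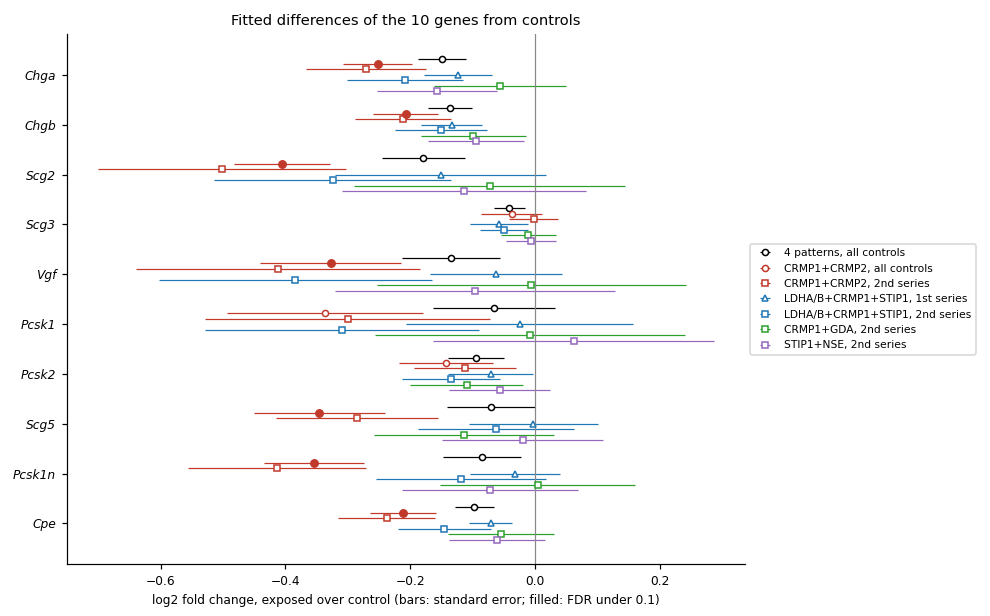
Fitted log2 fold change of each gene, exposed over control, with its standard error as a bar, for the 4 patterns together and for each pattern. Filled symbols mark FDR under 0.1. These occur only for CRMP1+CRMP2 against all controls, where 7 genes lie between -0.41 and -0.21.

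No member passed between males and females. Over all 71 animals, with group and title series in the model, 0 passed with edgeR, DESeq2 or limma and 0 had an unadjusted p under 0.05, beside 0.0624% and 4.69% of genes. Estimates, male over female, ran from -0.06 (Pcsk2, SE 0.043) to 0.15 (Vgf, SE 0.10). With the litter as a block, which pairs males and females of a dam, Vgf gave 0.19 (SE 0.10, FDR = 0.65) and again 0 passed.

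Across animals most of the genes rose and fell together. With the mean of each title series taken off, 43 of the 45 pairs correlated positively over 71 animals (median Pearson r = 0.58), 33 in the first title series and 45 in the second. The highest r was between Chga and Scg2 (0.86), followed by Scg2 with Pcsk1 (0.86), Cpe with Pcsk1n (0.83), Chga with Chgb (0.82) and Chga with Vgf (0.82). Scg3 stood outside this group: its r with the other 9 ran from -0.16 (Pcsk1n) to 0.25 (Pcsk2). In the first title series they ran from -0.55 (Pcsk1n) to 0.12 (Pcsk2), with Chga at -0.43, and in the second all 9 were positive, from 0.07 (Pcsk1n) to 0.47 (Vgf), with Chga at 0.37. These pairs share libraries and litters, and the pattern is a description.

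The partner pairs differed in how they covaried, a difference that was not itself tested. Pcsk1n and its target Pcsk1 had r = 0.54 and Spearman rho = 0.43 over 71 animals. The permutation p-values with 100000 resamples were 1e-05, the smallest they can give, and 0.00033, or 2e-05 and 0.00066 after Benjamini-Hochberg adjustment over both pairs. The r was 0.57 in the first title series, 0.53 in the second, 0.44 without the 2 animals farthest from the median and 0.44 over 27 litter means. The r of 0.54 lay below the median of all 45 member pairs (0.58), so this pair was not closer than a typical pair of members. Pcsk1n and Pcsk1 both correlated negatively with the summed cortical and hippocampal markers (r = -0.65 and -0.79). The part of those markers in the r of the pair was not tested. Scg5 and its client Pcsk2 had r = 0.02 (permutation p = 0.85) and rho = -0.13 (p = 0.29), with -0.05 and 0.07 in the separate series and -0.10 without the 2 farthest animals.

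**Figure D4:**
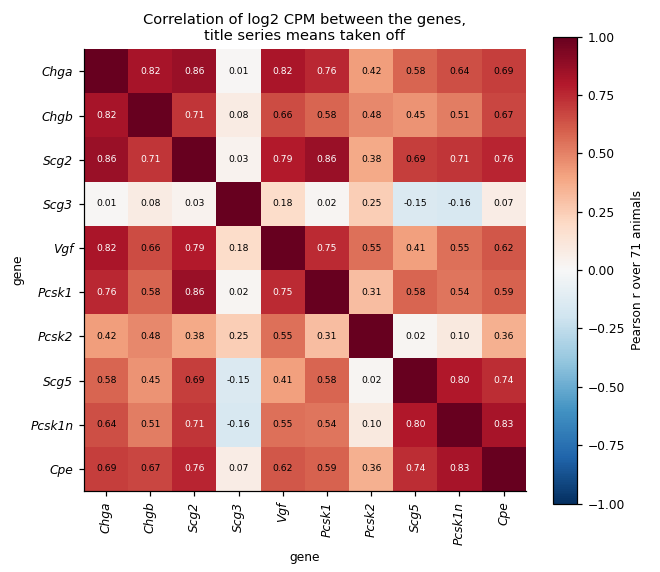
Pearson r between log2 CPM of each pair of genes over 71 animals after the mean of each title series was taken off, with colour from blue (negative) to red (positive). Scg3 forms a pale row, between -0.16 and 0.25, and the Scg5 and Pcsk2 cell is at 0.02.

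Most of the genes also followed regional markers of the slice. Over 71 animals with title series means taken off, the summed cortical and hippocampal neuron markers correlated negatively with Scg2 (r = -0.89, rho = -0.87), Chga (-0.87, -0.81), Pcsk1 (-0.79, -0.74), Vgf (-0.78, -0.74), Cpe (-0.72, -0.61) and Chgb (-0.71, -0.61). The permutation p was 1e-05 for each of these, the smallest 100000 resamples can give, and 1.5e-05 for r and 1.8e-05 for rho after adjustment over 40 relations of 10 genes with 4 lists. Within the title series, Scg2 gave -0.93 (28 animals) and -0.89 (43 animals), and without the 2 animals farthest from the median -0.86. Scg3 gave -0.06 (rho = 0.00, adjusted p = 0.62 and 0.97), with opposite signs in the first series (0.29) and the second (-0.31). Thalamic and habenular markers followed Vgf most closely (r = 0.85, rho = 0.75), with 0.58 in the first series and 0.91 in the second. They followed Scg5 little (r = 0.18, rho = 0.15, adjusted p = 0.14 and 0.23). Pcsk2 turned sign between the series, from -0.29 in the first to 0.73 in the second. Hypothalamic markers followed Scg2 (r = 0.82, rho = 0.75), Scg5 (0.73, 0.66), Pcsk1 (0.69, 0.65) and Pcsk1n (0.67, 0.64). In the first title series that list rested largely on Nkx2-1, with a median of 11.4 CPM. The summed list had medians of 16.1 CPM in its controls and 13.6 in its exposed animals. Otp, Rax, Six6, Hmx2, Hmx3, Nr5a1 and Sox14 had medians of 0 CPM there. Radial glia and astrocyte markers correlated with Cpe (0.70, 0.58) and Scg2 (0.69, 0.52).

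**Figure D5:**
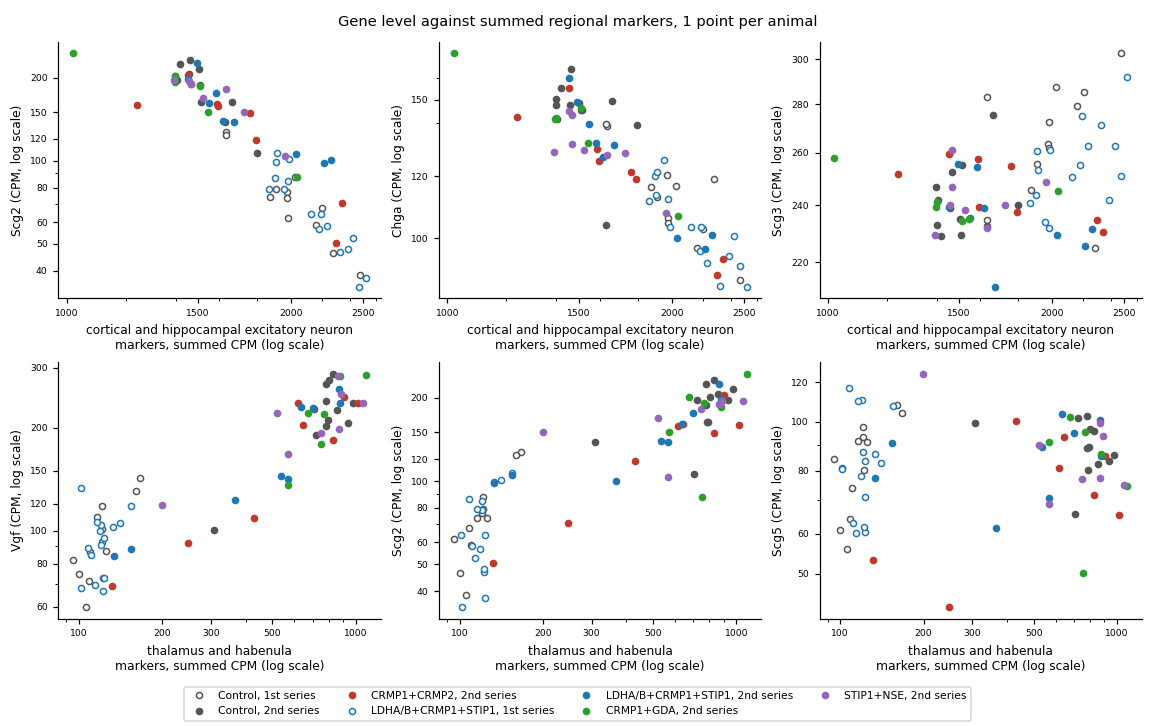
CPM of a gene against the summed CPM of a list of regional markers in the same animal, both on log axes, 1 point per animal, with open circles for the first title series. Scg2 and Chga fall along the cortical and hippocampal axis while Scg3 shows no such line over both series, and Vgf and Scg2 rise along the thalamic axis, with the low CRMP1+CRMP2 animals (132 and 247 CPM) at its left.

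Among 12467 genes outside the list, those whose profile over 71 animals was most like the mean of the 10 were Ache (acetylcholinesterase, r = 0.94), Nell1 (0.92), App (the amyloid precursor, 0.91), Alg2 (0.91) and Dlgap3 (0.905). The nearest gene to single members was Zcchc12 for Scg2 (0.92), Syngr3 for Pcsk1n (0.92), Slc17a6, a vesicular glutamate transporter and one of the thalamic markers, for Vgf (0.89), Dpp6 for Pcsk1 (0.88), Tspan7 for Cpe (0.88), Tprg1l for Scg5 (0.87) and Syt3 for both Chga (0.88) and Chgb (0.77). Pcsk2 and Scg3 had no close neighbour, with Sorcs2 at 0.63 and Pabpc1 at 0.59.

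Other genes of the pathway were read against the 11.4% of all genes that passed for CRMP1+CRMP2 against all controls. That comparison gave 0 passing of 12 tested among 13 other precursor processing enzymes. Pam, which amidates peptides, gave 0.02 (SE 0.058, FDR = 0.85) and Furin, the convertase of the Golgi, 0.03 (SE 0.047, FDR = 0.76). Of 26 tested among 30 genes of dense-core vesicle formation and release, 1 was lower, Ica1 (-0.18, SE 0.047, FDR = 0.027). The vesicle membrane phosphatase-like proteins Ptprn and Ptprn2 gave -0.14 (SE 0.058, FDR = 0.15) and -0.06 (SE 0.044, FDR = 0.36), and Cadps, which primes vesicles for release, -0.05 (SE 0.052, FDR = 0.55). Of 29 tested among 40 neuropeptide and neurotrophin precursors, 4 were lower and 0 higher: Pnoc (-0.48, SE 0.13, FDR = 0.027), Sst (-0.53, SE 0.17, FDR = 0.066), Trh (-1.33, SE 0.44, FDR = 0.068) and Cck (-0.39, SE 0.13, FDR = 0.069). Bdnf gave -0.22 (SE 0.17, FDR = 0.43). The medians of the 3 lists were 0.00, -0.08 and -0.40, against 0.01 for all genes. Within the second title series, Cck alone of the 3 lists passed (-0.48, SE 0.13, FDR = 0.093), of 31 precursors tested, beside 0.785% of all genes. For the 4 patterns together 0 of the 3 lists passed with edgeR, of 12, 26 and 27 genes tested. Of these, 7 had an unadjusted p under 0.05 in either direction, beside 10.3% of all genes, so this count is near the background.

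Between the controls of the 2 title series the same lists moved in both directions, where 41.5% of all genes passed. Of 12 processing enzymes tested, 4 were higher and 2 lower in the second series, with Cpm at 1.52 (SE 0.16), Pcsk5 at 0.69 (SE 0.086), Pam at 0.45 (SE 0.064) and Furin at -0.17 (SE 0.044). Of 26 vesicle genes tested, 11 were higher and 2 lower, with Cyb561, the vesicle electron carrier that feeds Pam, at 1.08 (SE 0.097), Slc18a2 at 1.56 (SE 0.18), Ptprn at 0.28 (SE 0.069) and Cadps at 0.22 (SE 0.048). The counts of passing enzymes and vesicle genes are near the background of all genes. Of 28 precursors tested, 11 were higher and 9 lower, with Avp at 3.48 (SE 0.50), Bdnf at 2.01 (SE 0.18) and Cartpt at -2.04 (SE 0.31). All of those named had FDR under 0.1, while Ptprn2 gave -0.03 (SE 0.045, FDR = 0.61).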

How the data were processed

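Gene counts of 71 postnatal day 2 rat brain slices were used as deposited. The authors aligned 150-base read pairs with STAR 2.5.4b to rn7 and counted reads per gene with featureCounts. The counts held no fractions, and 74.5% of those from 1 to 9 were even, for which no reason is given in the sources used here, so a fit on halved counts was tried. CPM was taken over all genes, and RPKM from the exon length in the table.

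Groups came from the autoantibody label. Genes with at least 1 CPM in 8 samples (all patterns together) or over 1 CPM in 2 (single patterns) were tested with edgeR 4.0.16 (TMM, robust quasi-likelihood F test, R 4.3.3), and FDR was adjusted by Benjamini-Hochberg over all genes tested. The comparisons with all controls had 1 surrogate variable (sva 3.50.0) as covariate, those within or between title series had sex (with title series in the test between the 2 effects), and that of the sexes had pattern and title series. Genes passed at FDR under 0.1, the study's threshold. Alternatives were DESeq2 1.42.0, limma 3.58.1 (voom, litter as a random effect), other scalings, filters and covariates, and sums per litter. In comparisons of a single pattern with controls, each litter of that pattern was also left out in turn. Control litters were left out only in the comparison between controls, so dependence of the exposure results on a control litter was not tested. Some of the models were also run on simulated counts that held no litter, title series or slice effect. That run cannot show how the models handle such effects. Correlations used log2 CPM with title series means taken off (Python 3.11.15, scipy 1.17.1).

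The 10 members and the lists of pathway genes and regional markers were chosen with earlier results of these data known. All members were named in every comparison, and of each pathway list at most the 4 passing genes with the smallest p, plus Pam, Furin, Cadps, Ptprn, Ptprn2 and Bdnf. P-values run over animals that share litters, except where the litter entered the model. Xist was not analysed here.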

Additional observations from a re-analysis of the deposited data

Results flagged for a closer look

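Among 40 sets of 4 to 10 animals (a gene in a group and title series) examined for an animal far from the others, 1 stood out, where chance would give about 2. It was Chga in the STIP1+NSE animals. The lowest of the 8, the male of litter 9_7, had 108 CPM, and the next had 128 CPM, a gap of 0.528 of the group's range of 108 to 145 CPM.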

How the results depend on the processing

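Of 217 recomputations of members that passed, 166 passed again and 2 changed sign. These totals pool 7 members of CRMP1+CRMP2 against all controls with 8 of the comparison between controls, which holds no exposure. They are therefore not a rate for the exposure result. For the 4 patterns together, members passing went from 0 to 2 with DESeq2, and genes passing from 4 to 16. For CRMP1+CRMP2 against all controls they went from 7 to 2 with the litter as a random effect, to 4 with title series and sex as covariates, and to 0 with sex in place of the surrogate variable, with the cortical and hippocampal markers as covariate, or without the animals with few thalamic markers (2 in this comparison). Over all genes, 1445 passed in the main fit of that comparison, and 33, 491, 834, 0 and 5 in these fits, in order. Leaving out an exposed litter gave 0 (litter 9_6) to 7 (litter 9_11) members, beside 41 and 799 genes. With sex in place of the surrogate variable, Vgf turned from -0.33 to 0.0051, close to 0. Within the second title series, 2 members passed with DESeq2, and leaving out an exposed litter gave 0 (litter 9_1) to 4 (litter 9_16). Between the controls, members passing went from 8 to 5 on sums per litter, and to 3 with the cortical and hippocampal markers as covariate. Genes passing went from 5218 to 1895 and 1681. With that covariate Scg5 turned from 0.07 to -0.46 and Pcsk1 from 0.80 to -0.27. The r of Pcsk1n and Pcsk1 went from 0.537 to 0.439 without the 2 animals farthest from the median and 0.441 over litter means, and that of Scg5 and Pcsk2 from 0.0227 to -0.113 over litter means. The causes were not tested. Fitting title series and sex, the marker covariates and the removal of the 5 animals were chosen after seeing the data.

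Most litters held both sexes, and with the litter as a replicate block in the comparison of males with females 0 members passed, as without the block, with a median log2 difference of 0.066 (Vgf 0.19). The exposure was given to the dam, so litters could not pair exposed animals with controls.

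Depth limited Pcsk1 most, with a counting error of 6.43% at its median count.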
